A study of Mus musculus with 462 samples.

Results

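Cdkn1b and Gpr19 are neighbouring genes on mouse chromosome 6, and their rows were followed in every count table of the series that lists them. They are 2 of the 691 transcripts used from a captured list of 692 rows. Of the 439 libraries with a count table, those of 110 modified clones and 86 Control clones list both. In the mm9 coordinates of the files, the Gpr19 row spans chr6:134819110-134847943 and the Cdkn1b row chr6:134870419-134875543. In RefSeq on GRCm38.p6, Gpr19 lies on the minus strand and Cdkn1b on the plus strand. With those strands their 5' ends face each other across 22.5 kb. Each row is an interval over a gene, and whether reads from introns were counted is not given. No other captured row overlaps either of them.

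Cdkn1b encodes p27Kip1, which binds cyclin-dependent kinases and slows entry into S phase. Its protein level is set in large part by ubiquitination through the Skp2 ligase. Gpr19 encodes an orphan G protein-coupled receptor. Elements near a promoter can influence RNA output from a neighbouring gene on the same chromosome. In a hybrid cell, counts assigned to each parental allele can therefore show whether a change lies on 1 chromosome or on both.

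Each library is poly(A)+ RNA from a clonal line of F1 2-1 129/Castaneus mouse embryonic stem cells, grown in 2i/LIF and enriched for captured transcripts by hybrid selection on a pool of barcoded libraries. The labels call the line female, and the growth protocol speaks of male cells. The tables hold 5 Gpr19-PromoterDeletion clones of the date label 150126, and 14 Gpr19-pAS clones, in which a polyadenylation signal was inserted at Gpr19. Of these, 7 carry the date label 150416 and 7 are labelled Gpr19-pAS-151214, called the later date here. A further 91 clones were modified at another locus. On 150126 these were 9 Crlf3-, 8 Rcc1-, 9 Slc30a9-, 5 Snhg17-, 8 Snhg3-, 9 linc1423-, 7 linc1509-, 6 linc1536- and 8 linc2025-PromoterDeletion clones. On 150416 they were 7 linc1536-pAS clones, and on the later date they were 6 Slc30a9-pAS, 5 linc1329-pAS and 4 linc2025-pAS clones. The Control clones number 86, with 77 of 150126 and 9 of 150416, and the later date has none. The labels give neither the deleted interval, the place of the insertion, the modified allele, nor the strain behind each count column. Each clone is 1 line, so p-values measure the spread between clonal lines. Control clones of 150126 share plates, and most of their variance in both genes lay between plates, as given below. The tests treat these clones as independent, so p-values against them are too small, and the modified clones carry no plate label that could serve as a block.

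Libraries held 62104 to 2932173 allele-assigned counts, with a median of 702020. The Gpr19-PromoterDeletion libraries were shallow, at 141710 to 542706 counts (median 302547), against 130659 to 1957286 (median 924005) in Control clones of 150126. The capture held 0 of 10 embryonic stem cell markers and none of the listed markers of other cell types, so the labelled cell type could not be checked. In the libraries of 150126, the first principal component of transcripts off chromosome 6 carried 30.1% of the variance and split the clones into 2 sets at its widest gap, between neighbouring clones at -0.70 and -0.20. The lower set held all 5 Gpr19-PromoterDeletion clones, 24 Control clones of 8 plates and 28 clones of 4 other groups. The higher set held 53 Control clones of 18 plates and 41 clones of 5 other groups. Each modified group lay wholly in 1 set, and 1 plate had Control clones in both. The labels name no batch that corresponds to these sets, and they were noticed in the data. Values for 150126 are therefore given against all 77 Control clones and again against the 24 of the lower set.

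The start regions of both genes are shown because the modified element is the Gpr19 promoter and the gene measured beside it has its own. These are the 250 bases before each start in RefSeq on GRCm38.p6, 5' to 3' on the strand of the gene, with GC boxes (GGGCGG on either strand) and CCAAT boxes (CCAAT on either strand) in capitals. The Gpr19 window is chr6:134897926-134898175 on the minus strand, taken at the most upstream of 4 starts in the table, and the Cdkn1b window is chr6:134920151-134920400 on the plus strand.
Gpr19: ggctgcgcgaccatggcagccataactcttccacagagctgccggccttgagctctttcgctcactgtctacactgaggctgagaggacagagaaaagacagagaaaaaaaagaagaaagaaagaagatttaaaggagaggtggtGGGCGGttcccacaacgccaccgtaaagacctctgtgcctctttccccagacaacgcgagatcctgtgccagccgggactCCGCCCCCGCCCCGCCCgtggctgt
Cdkn1b: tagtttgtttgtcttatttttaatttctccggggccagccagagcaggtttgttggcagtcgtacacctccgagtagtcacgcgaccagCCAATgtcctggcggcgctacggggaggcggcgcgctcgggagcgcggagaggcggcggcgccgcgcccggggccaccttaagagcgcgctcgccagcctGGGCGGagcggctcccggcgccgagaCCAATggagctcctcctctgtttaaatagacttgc
The Gpr19 window has 57.2% GC, 14 CpG and 4 GC boxes, of which 3 begin 25, 19 and 14 bases before the start, the last overlapping the one before it. It has no CCAAT box. The Cdkn1b window has 64.4% GC, 28 CpG, 1 GC box and 2 CCAAT boxes, the nearer of which begins 35 bases before the start. Neither window holds TATAAA on either strand. Over 32851 RefSeq windows of the same length the median was 52.4% GC and 6 CpG. A GC box was found in 32.7% of them, a CCAAT box in 33.8% and TATAAA in 12.4%, and 93.2% had no more CpG than the Cdkn1b window. A match describes letters in the window and is no evidence of binding.

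In the 5 Gpr19-PromoterDeletion clones, the allele ratios of both genes moved away from those of Control clones, and in each clone Cdkn1b moved to the same side as Gpr19. For Cdkn1b this allelic shift passed the test against all Control clones and against those of the lower set, but not against Control clones of low depth. The total of Cdkn1b was called lower against all Control clones but not against those of the lower set. Across the 14 Gpr19-pAS clones, Gpr19 was lower in total and shifted between alleles, while neither measure of Cdkn1b passed.

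Total Gpr19 stood at 1974, 1710, 1421, 1644 and 835 CPM (counts assigned to either allele, scaled to 1e+06 per library) in Gpr19-PromoterDeletion clones 1 to 5. The lowest, median and highest of the Control clones of 150126 were 1468, 3127 and 4561 CPM. The deletion clones were low, but 4 of 77 Control clones lay at or below the highest of them. Gpr19 averaged 1517 ± 429 CPM in deletion clones (SD, n = 5) and 3054 ± 639 CPM in Control clones (SD, n = 77), a log2 fold change of -0.99 ± 0.17 (SE; adjusted p = 3.31e-05, edgeR's quasi-likelihood test with Benjamini-Hochberg adjustment over 469 transcripts). Of those transcripts 13.2% were called lower. Control clones of the lower set averaged 2350 ± 330 CPM (SD, n = 24), and against them the log2 fold change of Gpr19 was -0.60 ± 0.14 (SE; p = 0.000128, adjusted p = 0.0566, edgeR), just outside the threshold of 0.05.

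For Cdkn1b the totals were 1762, 1486, 1864, 2336 and 973 CPM in Gpr19-PromoterDeletion clones 1 to 5. The lowest, median and highest Control clones of 150126 had 551, 3656 and 6427 CPM. All 5 deletion clones were below the Control median, inside the range of the Control clones, of which 20 of 77 lay at or below the highest deletion clone. The mean was 1684 ± 502 CPM in deletion clones (SD, n = 5) and 3613 ± 1387 CPM in Control clones (SD, n = 77), and the log2 fold change was -1.07 ± 0.29 (SE; adjusted p = 0.0209, edgeR). That call was lost without deletion clone 1, 2, 3 or 5, with adjusted p-values from 0.0305 to 0.0572 (edgeR) over the 5 fits that each left 1 clone out.

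Within the lower set the difference in total Cdkn1b was small. Its Control clones averaged 2052 ± 461 CPM (SD, n = 24), from 551 to 2824, and 19 of 24 were at or below the highest deletion clone. Against them, the log2 fold change of Cdkn1b was -0.25 ± 0.18 (SE; adjusted p = 0.985, edgeR, 441 transcripts). In this fit 0.0% of transcripts were called lower, none was called higher, and 19 had an unadjusted p under 0.05. Control clones of the higher set averaged 4320 ± 1041 CPM of Cdkn1b (SD, n = 53) and 3373 ± 465 CPM of Gpr19. With the first principal component as a covariate and all Control clones kept, the log2 fold change was -0.23 for Cdkn1b (adjusted p = 0.744, edgeR) and -0.66 for Gpr19 (adjusted p = 0.00256, edgeR), and 2 transcripts were called in all, Gpr19 and Akp3. Whether the sets differ in culture, library handling or something else was not tested. In these bulk samples, fewer cells with a transcript and less of it per cell cannot be told apart.

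**Figure D1:**
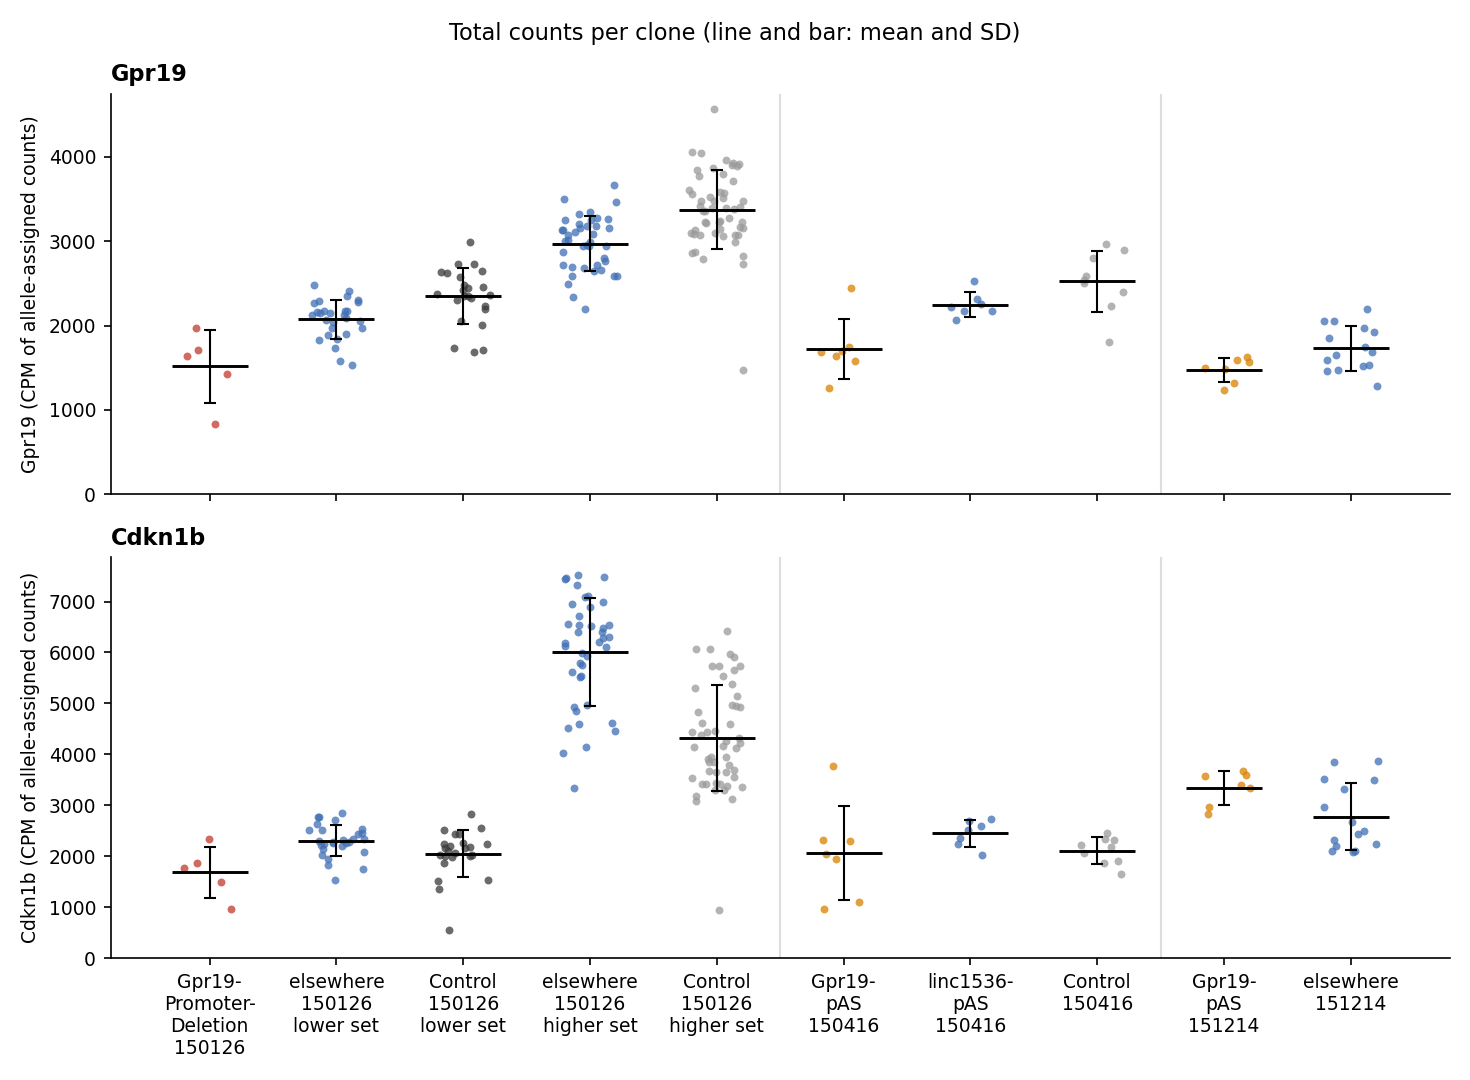
Total Gpr19 (top) and Cdkn1b (bottom) per clone, in CPM of allele-assigned counts, by group and date label, with clones of 150126 split into the sets defined by the first principal component. Points are clones, and lines with bars are means and SD; Cdkn1b of the 5 deletion clones lies between 973 and 2336 CPM, within the 551 to 2824 CPM of lower-set Control clones and below most of the higher set.

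**Figure D2:**
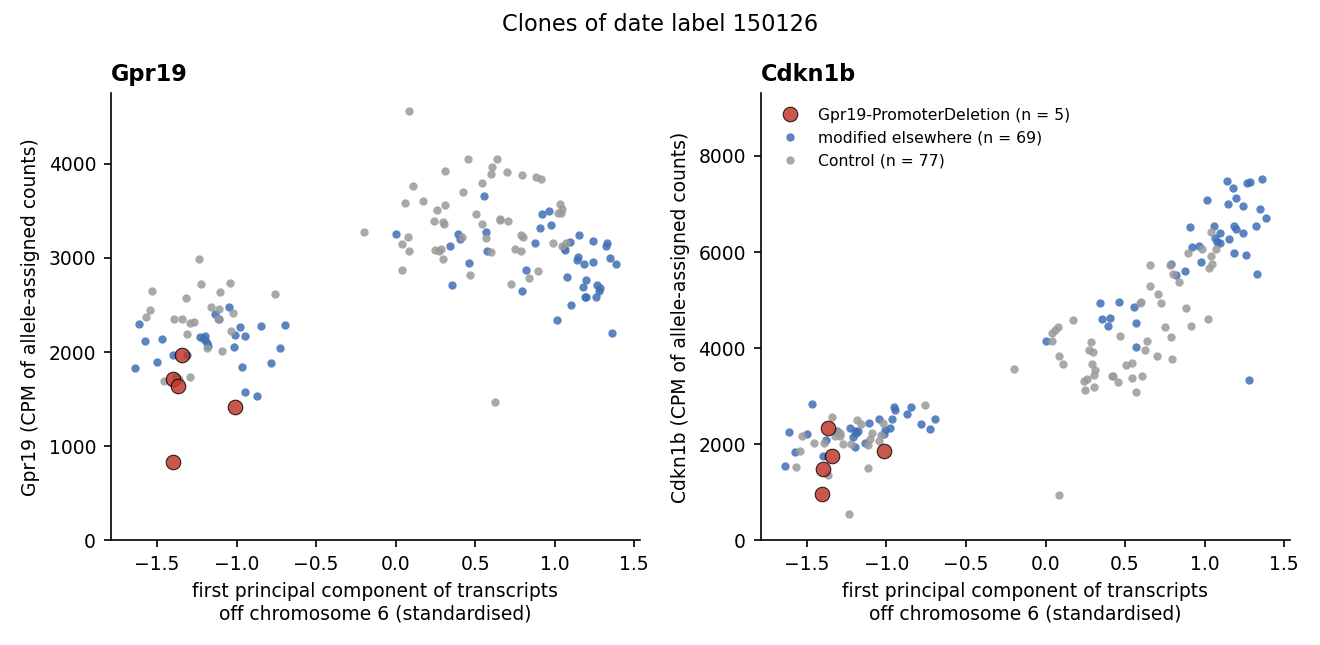
Gpr19 (left) and Cdkn1b (right) in CPM against the first principal component of transcripts off chromosome 6, for the clones of 150126. The clones form 2 separate sets, the 5 deletion clones sit in the lower one between -1.4 and -1.01, and Cdkn1b is higher at higher values of the component (Spearman rho 0.858 over 77 Control clones, a description).

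The allele columns showed a different picture. From 326, 749, 430, 233 and 453 counts, Gpr19 had 1574, 1480, 582, 1249 and 593 CPM in the first column and 399.6, 231, 839.5, 395 and 241 CPM in the second, in deletion clones 1 to 5. The second column was the reduced one in clones 1, 2, 4 and 5 and the first in clone 3. As log2 ratios of the first to the second column these are 1.97, 2.68, -0.53, 1.65 and 1.29, with counting errors of 0.14 to 0.22 (SE), against 0.10 to 1.08 (median 0.36) in Control clones of 150126. Each deletion clone lay outside the whole Control range.

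From 291, 651, 564, 331 and 528 counts, Cdkn1b had 1011, 1034, 747, 1468 and 514 CPM in the first column and 751, 452, 1117, 868 and 459 CPM in the second, in the same clones. Its log2 ratios were 0.43, 1.19, -0.58, 0.76 and 0.16, with counting errors of 0.12 to 0.17 (SE), against -0.51 to 0.40 (median -0.20) in Control clones. Clone 3, whose first column was the low one for Gpr19, was also the clone whose first column was low for Cdkn1b. Clones 1 to 4 lay outside the Control range and clone 5 inside it. Clones 1 and 3 were outside by less than their counting errors of 0.17 and 0.12 (SE), and the highest Control clone had 72 Cdkn1b counts. As absolute deviations from the Control median, 3 of 5 deletion clones exceeded the largest Control deviation of 0.60. The smallest of the deletion clones, 0.36, was reached by 4 of 77 Control clones.

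**Figure D3:**
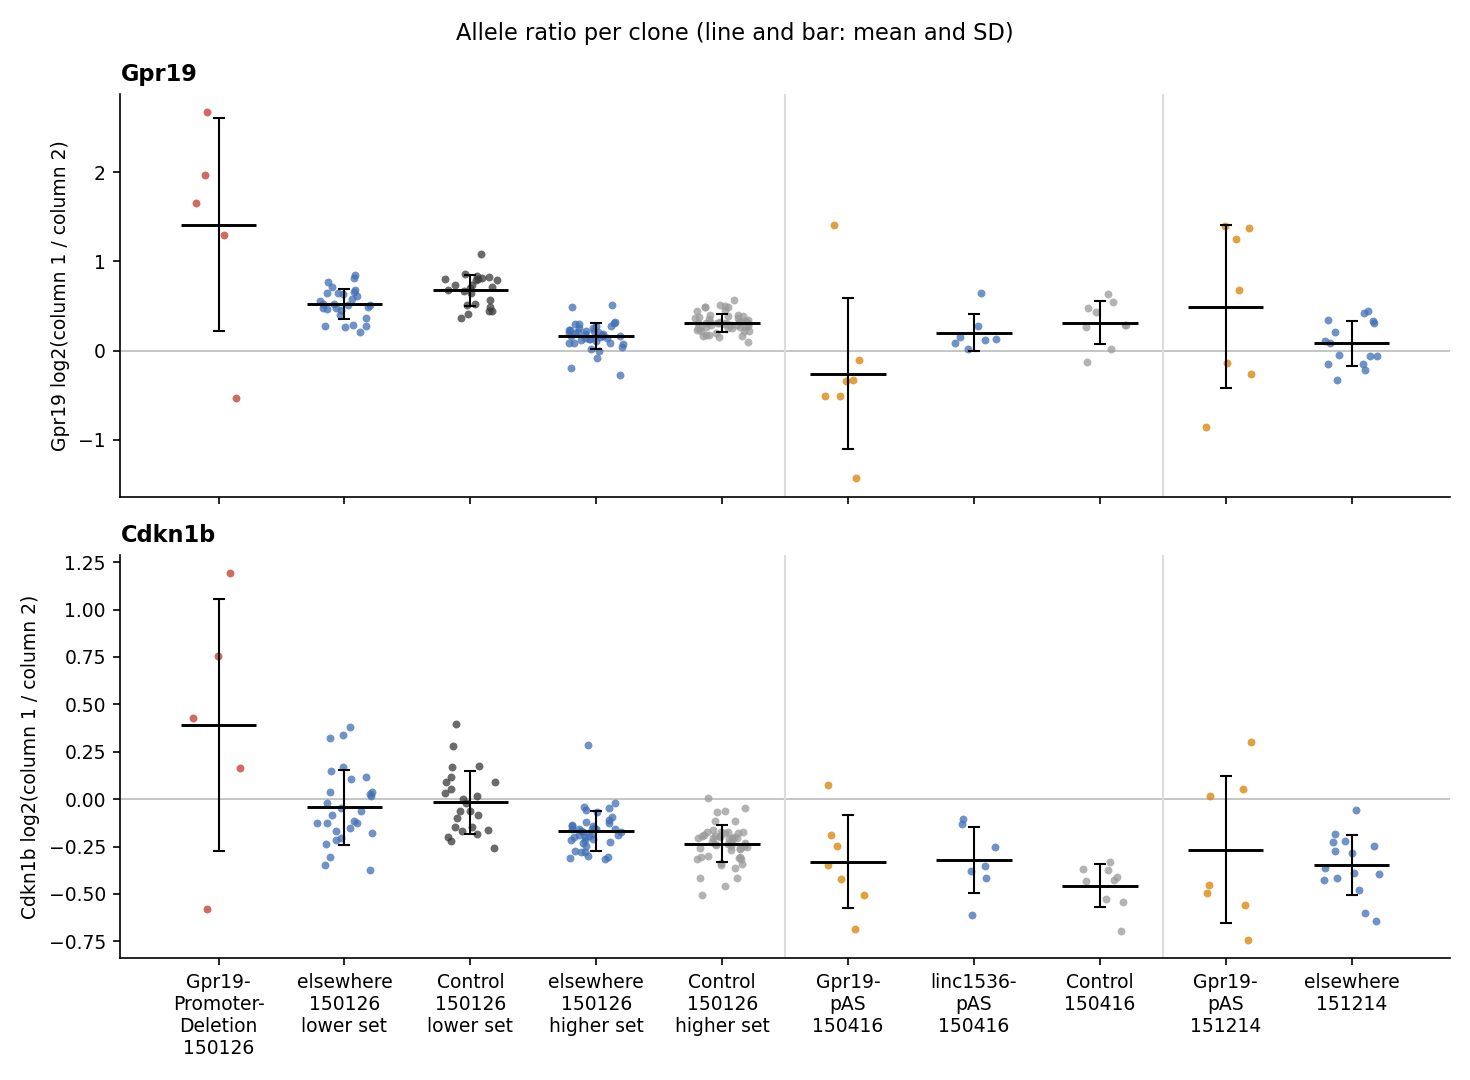
Log2 ratio of the first to the second allele column for Gpr19 (top) and Cdkn1b (bottom) per clone, by group, date label and set, with mean and SD. Gpr19-PromoterDeletion clones spread from -0.53 to 2.68 for Gpr19 and from -0.58 to 1.19 for Cdkn1b, and Gpr19-pAS clones spread widely for Gpr19, from -1.43 to 1.41.

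Since the modified allele is not known, the size of the shift was tested as the absolute deviation of a clone's log2 ratio from the median of all clones compared. For Gpr19 it averaged 1.4 ± 0.58 in deletion clones (SD, n = 5) and 0.16 ± 0.15 in Control clones (SD, n = 77), a difference of 1.24 (two-sided exact permutation test, p = 3.7e-08, the smallest p this design can give; adjusted p = 1.36e-05 over 372 transcripts). For Cdkn1b the deviation averaged 0.74 ± 0.43 in deletion clones and 0.11 ± 0.12 in Control clones (SD, n = 5 and 77), a difference of 0.63 (two-sided exact permutation test, p = 1.36e-06, adjusted p = 0.000252). In simulated data with these depths the deviation test made false calls above its nominal rate, so these p-values are too small, and they are given with Control clones thinned in depth further on. A larger deviation was called for 0.806% of transcripts, namely Gpr19, Cdkn1b and Mcat, an acyltransferase of mitochondrial fatty acid synthesis.

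Signed agreement takes a transcript's deviation as positive where it lies on the side of Gpr19 in the same clone. For Cdkn1b it was 0.74 ± 0.43 in deletion clones, positive in 5 of 5, and 0.06 ± 0.15 in Control clones, positive in 48 of 77 (two-sided exact permutation test, p = 1.25e-06, adjusted p = 0.000462). It was called larger for 0.539% of 371 transcripts, which were Cdkn1b and Eif4a3, a helicase of the exon junction complex. With all 5 on that side, signed agreement in the deletion clones equals their absolute deviation, so both Cdkn1b calls rest on the same 5 values. An exact sign test on 5 of 5 clones gives p = 0.0625, the smallest that 5 clones allow.

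Both allelic calls also passed within the lower set, whose Control clones were not thinned in depth. Relative to the median of its 24 Control clones, Gpr19 deviated by 1.26, 1.97, -1.23, 0.94 and 0.59 in deletion clones 1 to 5, each beyond the largest Control deviation of 0.37 in either direction. Cdkn1b deviated by 0.47, 1.23, -0.54, 0.80 and 0.21. Of these, 4 exceeded the largest Control deviation of 0.44, and 5 Control clones deviated at least as far as deletion clone 5. The mean absolute deviation exceeded that of the lower-set Control clones by 1.04 for Gpr19 (adjusted p = 0.00313) and by 0.49 for Cdkn1b (adjusted p = 0.0209; two-sided exact permutation tests), and 0.806% of 372 transcripts were called, again Gpr19, Cdkn1b and Mcat. Signed agreement of Cdkn1b exceeded it by 0.56 (two-sided exact permutation test, adjusted p = 0.0375), with 0.27% of transcripts called, Cdkn1b alone. Against the 16 Control clones no deeper than the deepest deletion clone, neither Cdkn1b call held (deviation larger by 0.40, adjusted p = 0.474, and signed agreement by 0.455, adjusted p = 0.655; two-sided exact permutation tests). Both held when all Control clones were thinned to the median depth of the deletion clones (two-sided exact permutation tests, adjusted p = 0.00017 and 0.000286). Deletion clones 1 and 4, at 165146 and 141710 counts, stayed below that depth. Lower-set Control clones, from 8 plates and at a median of 542536 counts, were deeper than the deletion clones (median 302547). No test took set and depth together.

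Each clone was also split by the side where Gpr19 was low. Against the medians of lower-set Control clones, the log2 CPM of Gpr19 was -1.54 ± 0.39 on the low side and -0.33 ± 0.57 on the other side (SD, n = 5). Cdkn1b was at -0.77 ± 0.45 on the side where Gpr19 was low and at -0.10 ± 0.55 on the other. In clones 1, 2 and 3 Cdkn1b was at -0.54, -1.27 and -0.46 on the low side and at -0.03, 0.01 and 0.03 on the other. Clone 4 had -0.33 on the low side and 0.51 on the other, so more of its shift lay in a higher other side. Clone 5 was low on both sides for both genes, with Cdkn1b at -1.25 and -1.0 and Gpr19 at -1.93 and -1.32. The side was chosen by Gpr19 itself, so its own split is a description.

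**Figure D4:**
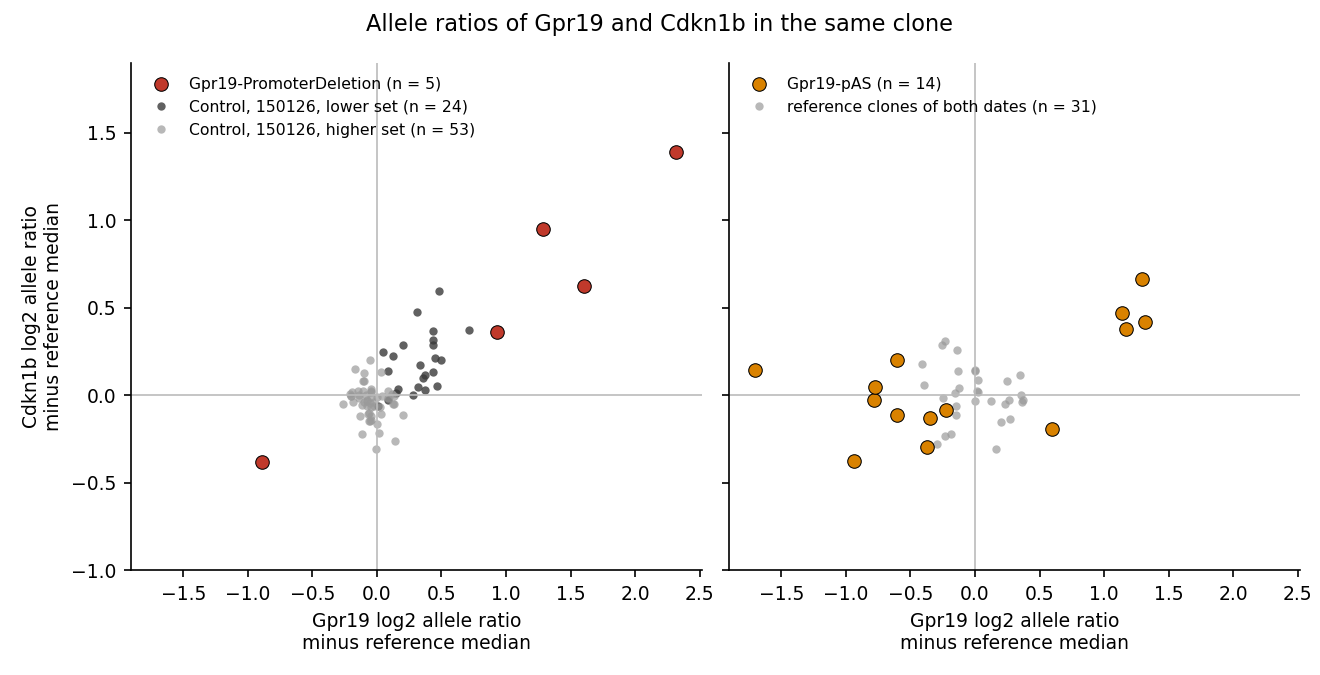
Deviation of the log2 allele ratio from the reference median for Cdkn1b (y axis) against Gpr19 (x axis) in the same clone, for Gpr19-PromoterDeletion and Control clones of 150126 (left) and for Gpr19-pAS clones and their reference clones (right). The 5 deletion clones fall in the lower left and upper right quadrants, with Cdkn1b from -0.38 to 1.39; of the 14 Gpr19-pAS clones, 10 have both genes on the same side.

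The other captured transcripts within 1 Mb of Gpr19 numbered 19. Of the 14 tested for total count in the deletion clones, 3 were called lower against all Control clones and none higher. Over all 469 transcripts tested, 13.2% were called lower. The median log2 fold change of the 14 was -0.11, against -0.04 over all transcripts tested. The 3 called were Hebp1, Emp1 and the lncRNA 2810454H06Rik. Hebp1, a heme-binding protein gene, was at -1.15 ± 0.36 (SE; adjusted p = 0.0285, edgeR). Emp1, an epithelial membrane protein gene, was at -1.69 ± 0.62 (SE; adjusted p = 0.0481, edgeR). Against lower-set Control clones Hebp1 was at 0.01 (adjusted p = 0.991, edgeR) and Emp1 at -0.39 (adjusted p = 0.985, edgeR), so neither call held there. Of the 10 neighbours with enough allele counts, none was called for deviation or for signed agreement. Over all transcripts tested, 0.806% were called for a larger deviation and 0.539% for signed agreement, so none among 10 is near that share. The lowest adjusted p-values for deviation among the 10 were 0.059 for Hebp1 and 0.0921 for Gprc5a (two-sided exact permutation tests). Against lower-set Control clones they were 0.406 and 0.954 for the same genes (two-sided exact permutation tests).

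The lncRNA 2810454H06Rik begins 0.04 kb from the 5' end of Gpr19 on the opposite strand, at chr6:134847979-134850803. It had 2, 2, 0, 0 and 0 counts in deletion clones 1 to 5. Summed over libraries, that is 4 counts of 1590069 (2.52 CPM) in deletion clones and 8.70 CPM of 13222288 counts in Control clones of the lower set, 4 of which also had none. Against all Control clones its log2 fold change was -2.22 ± 0.71 (SE; adjusted p = 0.0285, edgeR). It had too few counts to be tested within the lower set, and with the component as a covariate it was at -1.79 (adjusted p = 0.438, edgeR). At these counts the fold is poorly determined.

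Of the 37 genes in the cell cycle list the capture held 2, Cdkn1b and Myc, the transcription factor gene that drives growth and proliferation. Myc was called lower in deletion clones against all Control clones (log2 fold change -0.92 ± 0.34, SE; adjusted p = 0.0498, edgeR), but not against those of the lower set (0.17 ± 0.24, SE; adjusted p = 0.985, edgeR).

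**Figure D5:**
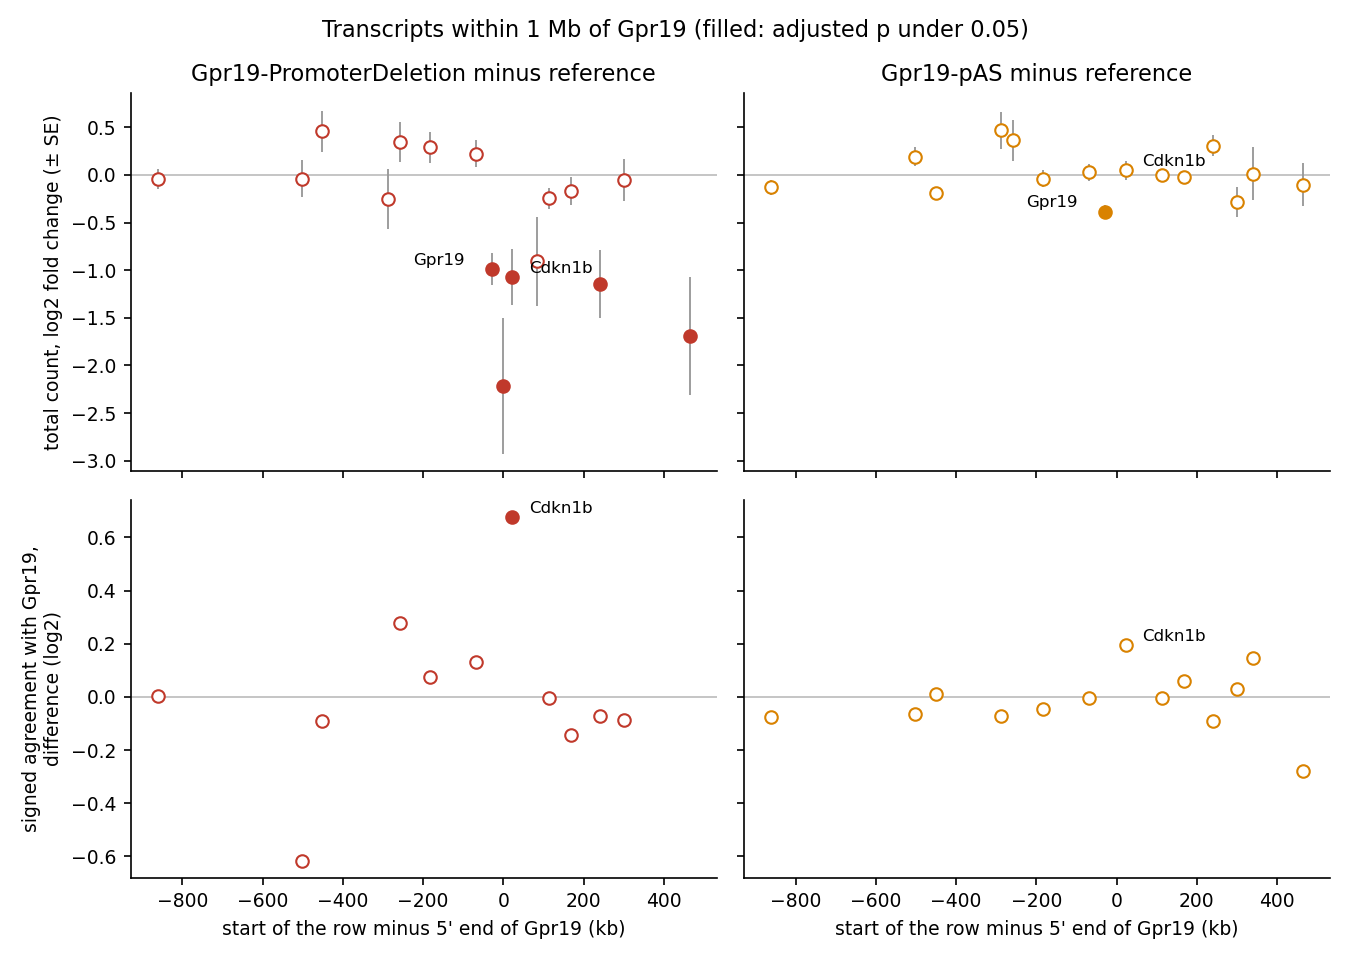
Log2 fold change of total count with SE (top) and difference in signed agreement (bottom) for transcripts within 1 Mb, against distance in kb from the 5' end of Gpr19, in Gpr19-PromoterDeletion (left, against all 77 Control clones) and Gpr19-pAS (right). Filled points passed an adjusted p of 0.05; in the lower panels the filled point is Cdkn1b in the deletion clones, at 0.68.

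With the inserted polyadenylation signal Gpr19 fell and Cdkn1b did not pass the test. Total Gpr19 had a lowest, median and highest value of 1260, 1687 and 2439 CPM in the 7 pAS clones of 150416, against 1808, 2352 and 2968 CPM in 16 reference clones of that date (Control and linc1536-pAS). On the later date it had 1232, 1494 and 1623 CPM in 7 pAS clones, against 1279, 1684 and 2192 CPM in 15 clones modified elsewhere. The ranges overlap on both dates. With the date as a term, the log2 fold change of Gpr19 was -0.39 ± 0.07 (SE; adjusted p = 0.000146, edgeR, 442 transcripts, of which 5.43% were called lower). It passed within 150416 (-0.54, adjusted p = 0.0173, edgeR) and within the later date (-0.32, adjusted p = 0.0105, edgeR).

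Total Cdkn1b ran from 971 to 3780 CPM (median 2044) in pAS clones of 150416, against 1646 to 2740 CPM (median 2283) in the reference clones. On the later date it ran from 2832 to 3675 CPM (median 3402) in pAS clones, against 2076 to 3879 CPM (median 2499) in clones modified elsewhere. The log2 fold change over both dates was 0.05 ± 0.10 (SE; adjusted p = 0.796, edgeR). Its sign turned to -0.01 within 150416 and to -0.04 without pAS clone 2, with neither near the threshold. Myc was at 0.07 ± 0.12 (SE; adjusted p = 0.759, edgeR), and of 13 other neighbours none was called for total count. Over all 442 transcripts tested, 10.6% were called.

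The allele ratio of Gpr19 was shifted in either direction among pAS clones. In 5 of them, clones 1, 11, 12, 13 and 14, it moved towards the first column, by 1.14, 1.17, 1.31, 1.29 and 0.60 from the reference median of the date. In the other 9 it moved towards the second, by -1.70 in clone 2 and by -0.94 to -0.22 in the rest. Of the 14 clones, 11 deviated further than any of the 31 reference clones, whose largest deviation was 0.41. The mean absolute deviation was 0.80 ± 0.45 in pAS clones and 0.21 ± 0.14 in reference clones (SD, n = 14 and 31; difference 0.59, two-sided permutation test within date, p = 1e-05, the smallest that 100000 resamples can give, adjusted p = 0.00429 over 429 transcripts). A larger deviation was called for 0.233% of transcripts, Gpr19 alone. Within 1 date the adjusted p was 0.308 on 150416 and 0.0516 on the later date.

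Cdkn1b deviated by 0.47, 0.38, 0.42, 0.67 and -0.19 in pAS clones 1, 11, 12, 13 and 14. In the 9 clones where Gpr19 moved the other way, it deviated by -0.38 to 0.20. It was thus on the side of Gpr19 in 4 of the 5 clones that moved towards the first column and in 6 of the other 9. Clone 2, with the largest Gpr19 shift, had Cdkn1b 0.15 to the other side. The mean absolute deviation of Cdkn1b was 0.25 ± 0.19 in pAS clones and 0.12 ± 0.10 in reference clones (two-sided permutation test, p = 0.00296, adjusted p = 0.212). Of the 14 pAS clones, 5 deviated further than any of the 31 reference clones, whose largest deviation was 0.31. These were clones 1, 9, 11, 12 and 13, and in each of them Cdkn1b lay on the side of Gpr19. Clone 1 had only 38 and 36 Cdkn1b counts, and its counting error of 0.33 (SE) exceeded its margin over the reference clones. In clones 9, 11, 12 and 13 the counting error was 0.06 to 0.08 (SE). The clones were picked by their deviation, so this is a description. Signed agreement was 0.18 ± 0.27 in pAS clones and -0.02 ± 0.15 in reference clones (two-sided permutation test, p = 0.00272, adjusted p = 0.964), with 0.0% of 428 transcripts called. Cdkn1b was on the side of Gpr19 in 10 of 14 pAS clones (exact sign test, p = 0.18) and in 13 of 31 reference clones. Of 12 other neighbours none was called for either allelic measure. Over all transcripts tested, 0.233% were called for a larger deviation and 0.0% for signed agreement.

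Both modifications were also compared directly, each clone being set against its own reference. Total Gpr19 was at -1.03 ± 0.48 in Gpr19-PromoterDeletion clones and -0.36 ± 0.26 in Gpr19-pAS clones on the log2(CPM + 1) scale (SD, n = 5 and 14), a difference of -0.67 (two-sided exact permutation test, adjusted p = 0.00369). Total Cdkn1b was at -1.03 ± 0.47 in deletion clones and 0.02 ± 0.54 in pAS clones, a difference of -1.05 (two-sided exact permutation test, adjusted p = 0.00592). Of 446 transcripts 45.3% were called in this comparison, so a call there is common. With lower-set Control clones as the reference of the deletion clones the differences were -0.32 for Gpr19 (adjusted p = 0.217) and -0.31 for Cdkn1b (adjusted p = 0.531; two-sided exact permutation tests). Absolute deviations differed by 0.56 for Gpr19 (p = 0.0353, adjusted p = 0.643) and 0.49 for Cdkn1b (p = 0.00378, adjusted p = 0.416), and signed agreement of Cdkn1b by 0.57 (p = 0.00361, adjusted p = 0.335; two-sided exact permutation tests). Of transcripts, 0.0% were called for deviation and 0.0% for signed agreement, and an unpassed test does not show that the modifications act alike.

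Clones modified elsewhere show how both genes vary when their own locus was left alone. Cdkn1b averaged 4505 ± 2013 CPM in 69 such clones of 150126 and 3613 ± 1387 CPM in 77 Control clones, and Gpr19 averaged 2607 ± 528 and 3054 ± 639 CPM in the same clones (SD). Over 13 groups, each tested against Control clones, Gpr19 was called lower in 8 and higher in none, Cdkn1b lower in 3 and higher in 4. Of all 6084 transcript tests in these groups 20.1% were called lower and 16.4% higher, edgeR at an adjusted p of 0.05. The 4 groups with higher Cdkn1b, Crlf3 (0.79), Rcc1 (0.72), linc1423 (0.69) and linc2025-PromoterDeletion (0.81 on the log2 scale), all lay in the higher set. The 3 with lower Cdkn1b, Slc30a9 (-0.63), Snhg17 (-0.81) and Snhg3-PromoterDeletion (-0.57), all lay in the lower set. The groups of the later date were set against Control clones of other dates, so date and group cannot be told apart there. In those groups Gpr19 was at -1.06 in Slc30a9-pAS, -0.79 in linc1329-pAS and -1.08 in linc2025-pAS clones, against -0.99 in the Gpr19-PromoterDeletion clones.

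Against Control clones of the same set, the 9 groups of 150126 had no lower call of Cdkn1b. The log2 fold changes were 0.16 in Slc30a9-, -0.03 in Snhg17- and 0.21 in Snhg3-PromoterDeletion clones, with adjusted p-values of 0.214 or more (edgeR). Cdkn1b stayed higher in the same 4 groups, at 0.54 in Crlf3-, 0.47 in Rcc1-, 0.44 in linc1423- and 0.56 in linc2025-PromoterDeletion clones (adjusted p = 0.000206, 0.00221, 0.003 and 0.000101, edgeR). Gpr19 was called lower in 4 of the 9, from -0.22 in linc2025- to -0.41 in Crlf3-PromoterDeletion clones, and higher in none. In these fits 13.2% of 4190 tests were called lower and 11.8% higher. The deletion clones' own Gpr19 value against the lower set, -0.60, was beyond all 9 but did not itself pass (adjusted p = 0.0566, edgeR). Of the 9 groups, 5 were set against the higher set and so do not share its reference.

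Allele ratios were compared in the same clones. In the 69 clones of 150126 modified elsewhere, Gpr19 deviated from the Control median by at most 0.64, while the least shifted Gpr19-PromoterDeletion clone deviated by 0.89. Cdkn1b deviated by at most 0.58, and 5 of those clones reached the smallest value of the deletion clones, 0.36. Cdkn1b lay on the side of Gpr19 in 35 of the 69.

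Unmodified clones differed widely in both totals. Over 25 plates of Control clones of 150126, 79.7% of the variance of log2 Cdkn1b and 72.8% of that of Gpr19 lay between plates, against a median of 66.7% over 472 transcripts and 31.6% expected with no plate effect. Plate means of Cdkn1b ran from 1662 to 6012 CPM, and those of Gpr19 from 2095 to 3963 CPM. Between plates lay 61.8% of the variance of the Cdkn1b allele ratio and 76.7% of that of Gpr19, against a median of 39.8%. The Gpr19 ratio averaged 0.68 ± 0.17 in lower-set Control clones and 0.31 ± 0.10 in higher-set ones, and the Cdkn1b ratio -0.02 ± 0.17 and -0.24 ± 0.10 (SD, n = 24 and 53). Depth moved with the sets, at a median of 542536 counts in lower-set and 1085762 in higher-set Control clones. Over the 77 Control clones, Spearman's rho of CPM with library counts was 0.667 for Cdkn1b and 0.581 for Gpr19, a description. The part of depth in these differences between Control clones was not tested.

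Totals of Cdkn1b and Gpr19 were not related past the threshold within either set. Across the 24 Control clones of the lower set, Pearson's r of log2(CPM + 1) was -0.21 (permutation test, adjusted p = 0.304) and Spearman's rho -0.17 (adjusted p = 0.412). In the 53 of the higher set r was -0.29 (permutation test, p = 0.0314, adjusted p = 0.0628) and rho -0.27 (adjusted p = 0.0631). Without the 2 clones farthest from the median of Gpr19, r of the totals was -0.43 in the lower and -0.27 in the higher set (permutation tests, adjusted p = 0.126 and 0.0999). The log2 allele ratios were related in the lower set, with r 0.47 (permutation test, p = 0.0222, adjusted p = 0.0443) and rho 0.46 (adjusted p = 0.0496). Without the 2 farthest clones r was 0.33 and did not pass (permutation test, adjusted p = 0.138). In the higher set r was -0.24 (permutation test, adjusted p = 0.0821) and rho -0.26 (adjusted p = 0.0631), and r was -0.23 without the 2 farthest (permutation test, adjusted p = 0.0999). Adjustment was over the 2 relations computed in each set of clones.

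Across all 77 Control clones the transcripts most like Cdkn1b in log2 total, by Spearman's rho among 389 compared, were Ccdc57 (0.911), Hebp1 (0.901), Abtb2 (0.869), Pycr1 (0.864) and Bahcc1 (0.862). Those most like Gpr19 were Rmnd5b (0.836), Manbal (0.827), Fam195b (0.812), Grina (0.786) and Bai1 (0.76). Between the 2 genes rho was 0.479, and 40.9% of transcripts had a larger absolute rho with Cdkn1b. These are descriptions over clones that share plates and sets. Hebp1, which lies 239.6 kb from the 5' end of Gpr19, is the one chromosome 6 transcript among the 10.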

How the data were processed

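The deposited values are whole-number counts of reads per transcript, in 1 column per parental allele, on mm9 per the submitters' processing notes, and how the authors aligned, counted or split reads by allele, or used strand, is not given in the sources used here. Per the labels' protocols, barcoded libraries were pooled for hybrid selection. Totals are the sum of both columns, so reads assigned to neither allele are missing from them. Libraries were grouped by their titles, fits were made within the 692-row list, and 1 repeated row was dropped.

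Totals were tested with edgeR 4.0.16 in R 4.3.3 (quasi-likelihood test on TMM-scaled libraries; transcripts with mean counts from 10 upwards; p-values adjusted over all of them by Benjamini-Hochberg, threshold 0.05). Allele ratios are log2 of the columns with a pseudocount of 0.5, in clones with at least 20 counts, tested by permutation, exactly or with 100000 resamples within date (Python 3.11.15, NumPy 2.4.6). Library totals of 62104 to 2932173 counts set the precision, and counting errors cover counting only. Over 3304 pairs of libraries of 1 group, the lowest chi-square per degree of freedom was 2.64, so none were counted as 1 sample.

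The members and lists were chosen with earlier results of these data known. Named transcripts are both members, called rows within 1 Mb, the 5 most alike in Control clones and captured list members. The sets of 150126 clones, the component as covariate, the low-depth and thinned references and leaving out single pAS clones were chosen after seeing the data. The scripts were tested on simulated data, where the deviation test made false calls above its nominal rate for the shallow deletion clones, and fewer once Control clones were thinned to their median depth. A planned correlation over Control clones of another date label could not be computed, since its list holds neither gene. PRO-seq, ATAC-seq and ChIP-seq samples were not analysed here.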

Additional observations from a re-analysis of the deposited data

Results flagged for a closer look

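Single clones stood apart from their group in 7 of 68 groups and measures checked (Dixon's test at 95%, by which chance marks about 1 in 20). Gpr19-pAS clone 2 of 150416 had 2439 CPM of Gpr19, against 1750 in the next clone, and was also the clone whose Gpr19 allele ratio lay farthest from the reference median among the 7 of that date. Rcc1-PromoterDeletion clone 8 had 3339 CPM of Cdkn1b against a group median of 6747, and linc2025-pAS clone 2 had 3848 CPM against a median of 2170. The log2 allele ratio of Gpr19 was 0.0233 in Crlf3-PromoterDeletion clone 2 (median 0.23), -0.27 in Rcc1-PromoterDeletion clone 6 (median 0.13) and 0.645 in linc1536-pAS clone 1 (median 0.13). That of Cdkn1b was 0.29 in linc1423-PromoterDeletion clone 5 (median -0.10).

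The totals of both genes differed between Gpr19-PromoterDeletion and Gpr19-pAS clones, by -0.67 for Gpr19 and -1.05 for Cdkn1b (two-sided exact permutation tests, adjusted p = 0.00369 and 0.00592). Calls were common in this comparison, at 45.3% of 446 transcripts, so these calls single out neither gene. With lower-set Control clones as the reference of the deletion clones the differences were -0.32 and -0.31, neither past the threshold.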

How the results depend on the processing

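Of 262 alternatives over 27 results, 47 changed a direction, a side of the threshold or a count by over 1.5 times, 15 of them by leaving out a clone. Against low-depth Control clones, total Cdkn1b in the deletion clones was at -0.45, Gpr19 at -0.78 (adjusted p = 0.875 and 0.777, edgeR), the allelic deviation of Cdkn1b exceeded theirs by 0.40 and its signed agreement by 0.455. Those 16 clones come from both sets. Against lower-set Control clones the totals were at -0.25 and -0.60, and with the component as covariate Cdkn1b was at -0.23. Left out 1 at a time, deletion clones gave -1.23 to -0.92 for total Cdkn1b (edgeR, adjusted p = 0.0305 to 0.0572), past the threshold only without clone 4. In pAS clones it was 0.05, with -0.0376 to 0.10 leaving out 1 clone (below 0 without clone 2) and -0.0084 on 150416. The deviation and signed agreement of Cdkn1b passed under their other 8 alternatives and without each of the 5 deletion clones in turn.

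In the deletion fits 18.1% of transcripts were called. Without the low-count filter it was 9.94%, with Control clones of any date 6.22%, with the covariate 0.426%, and 0.426% to 4.26% leaving out any 1 clone. Against low-depth or lower-set Control clones edgeR called 0.0%, with an unadjusted p under 0.05 for 20 of 420 and 19 of 441 transcripts. In the pAS fits it was 10.6%, and 16.97% with DESeq2 1.42.0, 5.92% without the filter, 7.01% with the covariate, 1.47% on 150416, 23.8% on the later date and 4.54% to 15.4% leaving out 1 clone, with a fall past 1.5 times without clone 8, 11, 12, 13 or 14. The allelic deviation of Gpr19 in pAS clones was 0.51 larger on 150416 and 0.63 on the later date, past the threshold on neither (adjusted p = 0.308 and 0.0516). The difference between deletion and pAS clones in total Cdkn1b was -0.78 with pAS clones of 150416 and -0.31 with lower-set Control clones, and in total Gpr19 -0.54 and -0.32. Across Control clones, Pearson's r of the totals was 0.44 pooled, 0.11 centred on plates, -0.21 in the lower and -0.29 in the higher set, and that of the ratios was 0.59 pooled and -0.24 in the higher set. With clones modified on other chromosomes as reference, Cdkn1b was called lower in 4 groups and higher in 2, and Gpr19 lower in 3 and higher in 1. Over these 12 fits, from 0 of 442 to 237 of 479 transcripts were called in either direction, so calls were common in some of them. The linc1536-pAS clones could not be fitted. Cdkn1b was called lower in 0 of 9 groups of 150126 against Control clones of the same set.

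Except where stated, the causes were not tested. In the deletion clones the counting error of a log2 allele ratio reached 0.22 for Gpr19 and 0.17 for Cdkn1b (SE), which limits what 1 clone can show. In the pAS clones this error reached 0.33 for both genes (SE). No paired analysis was possible because the labels give wells, and plates for Control clones, but no replicate numbers shared between groups.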
